A study of Mus musculus with 3 samples.

Results

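The clustered protocadherins of the mouse were described from bulk RNA-Seq counts of the E10.5 maxillary process. They were chosen by name: protein-coding genes whose GENCODE M21 name places them in the alpha, beta or gamma protocadherin cluster. This gave 57 of the 55401 genes counted, with 14 in the alpha cluster, 22 in the beta cluster and 21 in the gamma cluster. The gamma cluster held 12 A-type, 6 B-type and 3 C-type genes. All lie on the plus strand of chromosome 18 (mm10), with alpha from 36930184 to 37187661, beta from 37264938 to 37524479 and gamma from 37661793 to 37841873. *Pcdhgb8* is annotated as a polymorphic pseudogene and was not counted among them. The name *Pcdha11* belongs to 2 genes, which are told apart here by their identifiers.

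The 3 libraries were 3 RNA samples of 1 genotype, *wnt1cre; Rosa26Dlx2/-* (OE). In these embryos Cre recombinase under *wnt1* control acts in the neural crest and switches on a *Dlx2* transgene, placed at *Rosa26*, in the cells derived from it. Cells of the dissected tissue that do not come from the neural crest, such as epithelium and endothelium, are not targeted, and how many embryos made up a sample was not given. The wild-type side of the experiment was not analysed here, and no value below compares genotypes. *Dlx2* had 9089, 7150 and 6890 counts in replicates 1, 2 and 3, or 206 ± 26.7 CPM (counts per 1000000 gene counts after TMM scaling of each library total, as for every CPM below; SD over n = 3), which does not separate the transgene from the endogenous gene.

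Clustered protocadherins are cadherin-like adhesion proteins of the cell surface, best known in neurons, where each cell makes a few of the many isoforms and the set acts as a surface identity. In the alpha and gamma clusters each isoform has its own promoter and its own large variable exon, which encodes the extracellular part, the membrane span and some of the intracellular part. That exon is spliced to a short run of constant exons at the end of the cluster, which encode an intracellular end common to all isoforms of the cluster. Genes of the beta cluster have no constant exons, and each is in essence a single large exon. CTCF, cohesin and DNA methylation act on the choice of promoter, while the C-type genes are less bound by that choice.

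This layout bears on what a gene count can hold. The constant exons belong to every gene of their cluster in the annotation, and a counting program that leaves a read unassigned when it overlaps several genes removes the reads on them. In the alpha cluster the stretch shared with another gene on the same strand had a median of 2860 bases (range 2860 to 5274). In the gamma cluster it had a median of 2119 bases (range 2116 to 3157). As a result a median of 46.4% of the exonic bases of an alpha gene (range 7.0 to 51.4%) and 54.8% of those of a gamma gene (range 0 to 68.5%) lay in no other gene of either strand. In the beta cluster the median was 100% (range 36.5 to 100%), and 19 of 22 genes were free of overlap. Across all 21897 protein-coding genes the median was also 100%, and 3.75% of them had under 60% of their exonic bases to themselves. Measured over coding bases alone, the median was 82.9% for alpha and 86.5% for gamma, as most of the shared stretch lay outside the coding sequence.

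**Figure D1:**
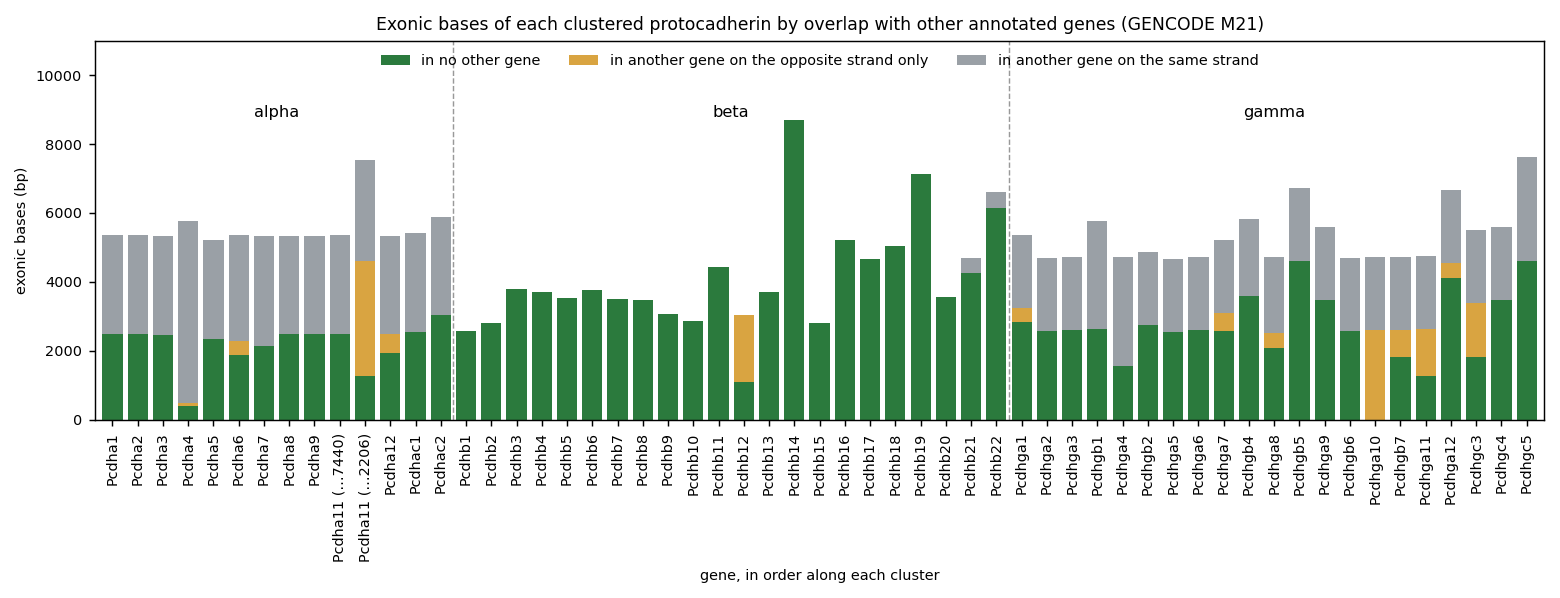
Exonic bases (bp) of each clustered protocadherin, in order along each cluster, divided into bases in no other annotated gene, bases covered only by a gene on the opposite strand, and bases covered by a gene on the same strand. Alpha and gamma genes share a median of 2860 and 2119 bases on the same strand, 19 of 22 beta genes share none on either strand, and *Pcdhga10* has no base of its own once the opposite strand is included.

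With the opposite strand included, 1 of the 57 genes (*Pcdhga10*) had no base of its own, against 0.827% of all protein-coding genes. On the same strand alone none had 0 unshared bases, against 0.639% of all protein-coding genes.

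Genes on the opposite strand covered further bases of 4 of 14 alpha genes, 1 of 22 beta genes and 8 of 21 gamma genes. The library kit named by the study does not mark the strand, so reads of a gene and of its antisense partner cannot be told apart on those bases. Repeated sequence between paralogs was a smaller part of the unshared bases. Of the 100-base windows in them, at most 9.80% (*Pcdhgb2*) were also found in a transcript of another gene, with medians of 4.39% for alpha, 0% for beta and 0% for gamma. Levels below are therefore counts per kilobase of exonic bases in no other gene on either strand, per 1000000 counts on genes with TMM scaling (called the level), with all exonic bases and same-strand bases as alternative lengths. A level computed this way cannot recover fragments that reach from a variable exon into a constant exon, which also touch bases of several genes.

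The gamma cluster was the most abundant of the clusters in every library, the beta cluster came next, and the alpha cluster was close to 0. Summed over their genes, gamma had 2518, 2034 and 830 counts in replicates 1, 2 and 3, beta had 289, 184 and 172, and alpha had 20, 16 and 7. Gamma genes thus held 89.1%, 91.0% and 82.3% of all clustered protocadherin counts. In CPM the sums were 48.1 ± 23.0 for gamma, 5.74 ± 1.54 for beta and 0.385 ± 0.175 for alpha (SD, n = 3). A count of 10 or more in each library was reached by 22 of the 57 genes, against 61.3% of all protein-coding genes, and these were 18 gamma genes, 4 beta genes and no alpha gene. At most 3 counts in every library were seen for 12 of 14 alpha, 4 of 22 beta and 1 of 21 gamma genes, against 28% of all protein-coding genes. In this bulk tissue, fewer cells that express these genes and less RNA per cell cannot be told apart.

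Per kilobase the order of the clusters was the same. The pooled level, summed counts over summed unshared length, was 0.858 ± 0.409 for gamma, 0.0639 ± 0.0172 for beta and 0.0126 ± 0.00575 for alpha (SD, n = 3). The ratio of gamma to beta was 13.9, 17.7 and 7.73 in replicates 1, 2 and 3 (13.1 ± 5.04). The ratio of beta to alpha was 4.90, 3.90 and 8.34 (5.72 ± 2.33). Each ratio was above 1 in all 3 libraries, and an exact permutation test over libraries (two-sided) gave p = 0.25 for each, the smallest p that 3 libraries allow.

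The length used moved both ratios in opposite directions. Dividing by all exonic bases, as though the constant exons contributed counts, lowered the gamma to beta ratio to 6.79 ± 2.61 and raised the beta to alpha ratio to 14.2 ± 5.77. Gamma stayed above beta and beta above alpha in every library under all 3 lengths. The ratio of gamma to alpha, the clusters with constant exons, was 68.4, 69.1 and 64.4 (67.3 ± 2.51), and 86.3 ± 3.22 over all exonic bases.

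**Figure D2:**
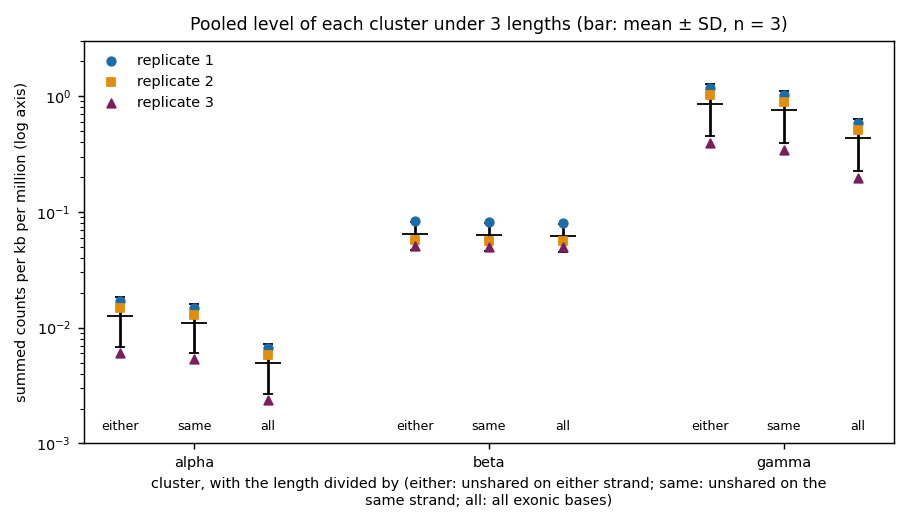
Pooled level of each cluster (summed counts per kb per 1000000, log axis) in the 3 OE libraries, with 3 lengths in the denominator, and with bars for the mean and SD (n = 3). On unshared bases gamma, beta and alpha averaged 0.858, 0.0639 and 0.0126, and the clusters keep their order in each library under each length.

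Medians over members gave the same order of gamma and beta, and a difference between beta and alpha whose size depended on how low counts were handled. For the median over members of log2 levels, with 0.5 counts added, beta minus gamma was -3.25, -3.33 and -2.29 in replicates 1, 2 and 3 (-2.96 ± 0.58). The difference of beta minus alpha was 2.24, 2.77 and 2.29 (2.43 ± 0.29). Both had an exact permutation p of 0.25, the smallest possible. Most alpha genes were at 0, so their log2 levels rest on the added counts and on the length: beta minus alpha was 1.04 with 2 counts added and 4.15 over all exonic bases. With every count under 3 raised to 3, beta minus alpha was 0.96, 0.42 and 0.04 (0.48 ± 0.46) while gamma minus beta was 2.88 ± 0.54. The difference of beta minus alpha stayed above 0 in each library, and with these raised counts its mean was close to its SD.

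In the gamma cluster the C-type gene *Pcdhgc3* stood above all others. It had 1023, 792 and 342 counts in replicates 1, 2 and 3, and held 40.6%, 38.9% and 41.2% of all gamma counts. Its share of the cluster was thus alike in the 3 libraries although its counts were not. Its level was 10.6 ± 4.99 (SD, n = 3), and by CPM it ranked 7614 of 21897 protein-coding genes. The next gene, *Pcdhgb6*, had 254, 241 and 70 counts and a level of 1.98 ± 1.09. The ratio of the 2 levels was 5.67, 4.63 and 6.88, or 2.50 ± 0.29 on the log2 scale.

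The size of this gap depended on the antisense gene *BC037039*, which covers 1559 bases of *Pcdhgc3*. Counting those bases as usable, the length of *Pcdhgc3* rose from 1821 to 3380 bases, its level became 5.70 ± 2.69, and the log2 gap to *Pcdhgb6* became 1.61 ± 0.29. *BC037039* itself had 20, 43 and 48 counts, lowest in replicate 1, where *Pcdhgc3* was highest.

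The other C-type genes were much lower. *Pcdhgc4*, known for the survival of neurons, had 54, 40 and 37 counts and a level of 0.336 ± 0.0610. *Pcdhgc5* had 30, 29 and 2 counts and a level of 0.119 ± 0.0932, the lowest of the gamma genes that have a level. *Pcdhac1* had 0, 0 and 2 counts. *Pcdhac2* had 11, 14 and 3 counts and a level of 0.0834 ± 0.0526, the highest in the alpha cluster, where it held 55%, 87.5% and 42.9% of the few counts. Including *Pcdhac1*, 13 of 14 alpha genes were at 0 in at least 1 library.

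The A-type and B-type gamma genes had similar medians and a wide range within each type. The median of the mean levels was 0.418 over the A-type genes with a level and 0.454 over the B-type genes. After *Pcdhgb6* the highest was *Pcdhgb7*, with 151, 119 and 75 counts and a level of 1.69 ± 0.541. This place depended on the length, because *Gm26672*, on the opposite strand, covers 771 of its bases: on same-strand bases its level was 1.19 ± 0.380, below the 1.27 ± 0.340 of *Pcdhga4*, which has no such overlap. The lowest was *Pcdhga1*, with 15, 23 and 12 counts and a level of 0.159 ± 0.0607. In the order of mean levels, *Pcdhgc3* and *Pcdhgb6* were the only 1 of 19 neighbouring pairs whose ranges over the 3 libraries did not overlap. Within libraries, where the genes are measured together, 3 of the 19 pairs kept the same order in all 3. Besides *Pcdhgc3* over *Pcdhgb6*, these were *Pcdhgb7* over *Pcdhga11* (0.46 ± 0.44 on the log2 scale) and *Pcdhga4* over *Pcdhga3* (0.97 ± 0.69). The other 16 pairs changed order between libraries.

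Across the 17 A-type and B-type genes with a level, Spearman's rho was 0.38 between mean level and place along the cluster, -0.62 with unshared length and 0.57 with the GC content of the unshared bases. In the beta cluster rho had the opposite sign for the last 2, at 0.40 with unshared length and -0.24 with GC content over 22 genes. These values are a description over genes that share the same 3 libraries, and the unshared length is also the denominator of the level.

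**Figure D3:**
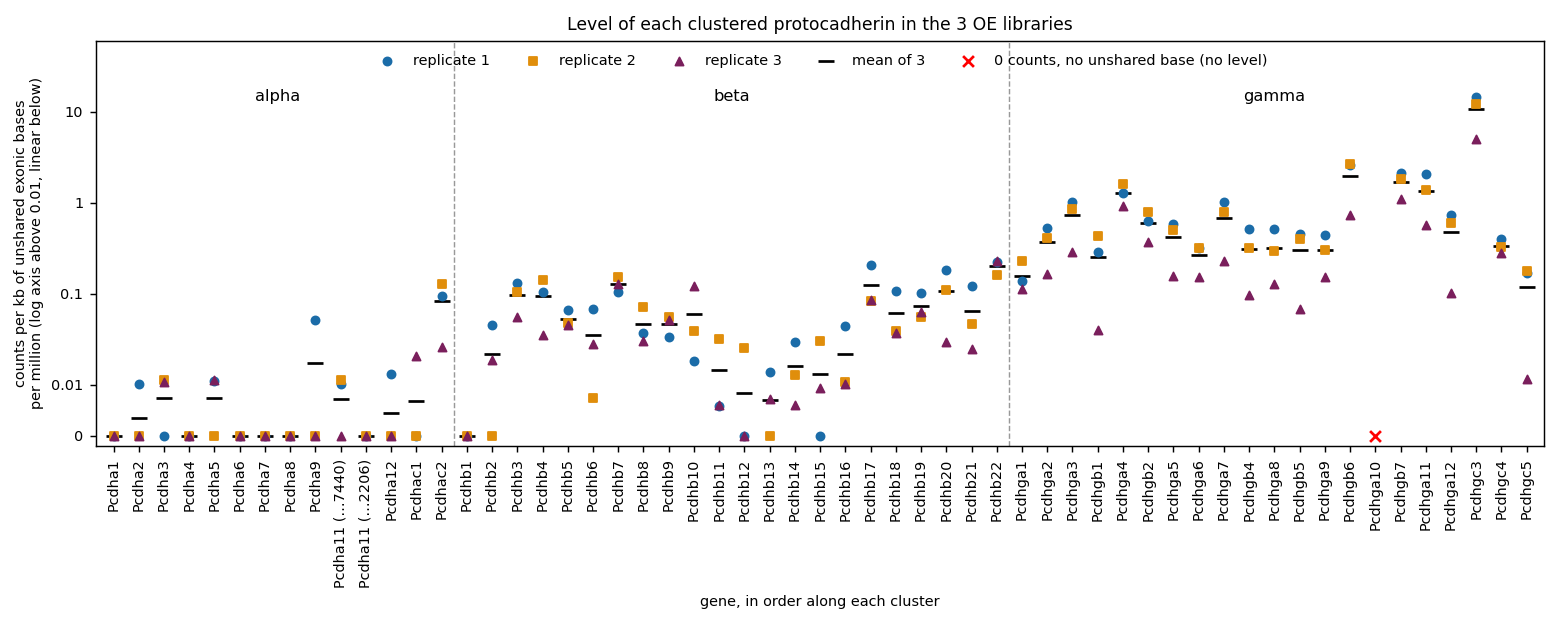
Level of each clustered protocadherin (counts per kb of unshared exonic bases per 1000000, log axis above 0.01 and linear below it), in order along each cluster, in each of the 3 OE libraries, with a dash for the mean. *Pcdhgc3* averages 10.6, most other gamma genes lie between 0.1 and 2, beta genes lie at or below 0.204 on average, and 13 of 14 alpha genes have a point at 0.

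*Pcdhga10* (ENSMUSG00000102222) was the only gamma gene at 0 counts in all 3 libraries, although the genes on either side were among the 4 highest under either length. These are *Pcdhgb6* and *Pcdhgb7*. Next comes *Pcdhga11*, the gene after *Pcdhgb7*, had 101, 61 and 27 counts and a level of 1.34 ± 0.757. On same-strand bases the level of *Pcdhga11* was 0.638 ± 0.360, which ranked 6 in the cluster, so its place among the highest depended on the length. The 2613 bases that *Pcdhga10* does not share on its own strand are all covered by *Gm26672*, a gene on the opposite strand with 6, 4 and 10 counts, so no base remained for a level. Across the genome, 17 protein-coding genes had at least 1000 bases free on their own strand and none free on either strand. Of these, 16 were at 0 in all 3 libraries and none exceeded 3 counts in a library, whereas 16.6% of the 19537 protein-coding genes with at least 1000 bases free on either strand were at 0. *Gm38182*, a noncoding gene at the end of the gamma cluster with 0 unshared bases in GENCODE M21, had 6, 12 and 4 counts. Its 1530 exonic bases all lie in *Pcdhgc5* on the same strand. Under GENCODE M21, a counting program that leaves overlapping reads unassigned would give it 0. The unshared lengths used here may therefore not be those of the counting. Whether strand was used in counting, and which annotation, is not given in the sources used here, and whether the 0 of *Pcdhga10* reflects its transcription was not tested.

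Overlap was also large for a few alpha genes. *Pcdha4* kept 404 of 5768 exonic bases, because the annotated readthrough gene *Gm42416*, which spans from the alpha to the gamma cluster, covers most of its variable exon. The *Pcdha11* gene ENSMUSG00000102206 kept 1268 of 7535 bases. Both had 0 counts in every library, as did *Pcdha1*, *Pcdha6*, *Pcdha7* and *Pcdha8*. Those 4 kept between 1886 and 2489 bases of their own, and the limits that 3 counts set for their levels ran from 0.0323 for *Pcdha1* to 0.0427 for *Pcdha6*, under the median level of a beta gene (0.05). For *Pcdha4* and the *Pcdha11* gene with 0 counts the limits were 0.199 and 0.0635, above that median. These limits cover counting error only. The alpha gene with the most counts after *Pcdhac2* was *Pcdha9*, with 5, 0 and 0 counts, followed by level by *Pcdha5*, with 1, 0 and 1. *Pcdha2* and *Pcdha12* each had 1, 0 and 0 counts, *Pcdha3* had 0, 1 and 1, and the *Pcdha11* gene ENSMUSG00000007440 had 1, 1 and 0.

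Beta genes had few counts each, spread over many genes. The highest level was that of *Pcdhb22*, with 53, 35 and 53 counts and 0.204 ± 0.0383, followed by *Pcdhb7*, with 14, 19 and 17 counts and 0.128 ± 0.0244, and *Pcdhb17*, with 37, 14 and 15 counts and 0.125 ± 0.0697. *Pcdhb22* held 18.3%, 19.0% and 30.8% of the beta counts, a smaller share than *Pcdhgc3* of the gamma counts in each library. At the lower end *Pcdhb1* was at 0 in all 3 libraries and *Pcdhb13* had 2, 0 and 1 counts. *Pcdhb2* (5, 0 and 2 counts), *Pcdhb12* (0, 1 and 0) and *Pcdhb15* (0, 3 and 1) were also at 0 in at least 1 library. *Pcdhb12* is the only beta gene with an antisense partner over its exon, *Gm37446*, which covers 1927 of its 3034 bases. Only 1 of 21 neighbouring pairs in the order of beta levels, *Pcdhb22* over *Pcdhb7*, had ranges that did not overlap. Over the 22 beta genes Spearman's rho between mean level and place along the cluster was 0.30, a description over genes that share their libraries.

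The 3 libraries did not hold the same amount of clustered protocadherin RNA. A chi-square test per gene against the scaled library sizes (Benjamini-Hochberg over the 17115 genes averaging 10 counts or more) asks whether counts differ beyond sampling noise, and compares libraries, not conditions. Of the 29 clustered protocadherins tested, 23 differed, against 81.5% of all genes tested. The test picks up smaller differences at higher counts, and these sets were not matched by count. Among the members that differed, the direction was more uniform. Of 20 gamma genes tested, 18 differed and all 18 were lowest in replicate 3, against 39.1% of all genes tested that differed and were lowest there. Of 9 beta genes tested, 5 differed and 4 of those were lowest in replicate 3. Differing genes that were highest in replicate 1 numbered 12 in gamma and 4 in beta, against 33.8% of all genes tested. The remaining gamma genes tested, *Pcdhga1* (adjusted p = 0.104) and *Pcdhgc4* (adjusted p = 0.256), missed the threshold by the chi-square test.

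The log2 CPM of replicate 3 minus the mean of the other 2 had a median of -1.56 over the 20 gamma genes tested, and all 20 were below 0. Over the 9 beta genes tested the median was -0.78, with 7 below 0. Over all protein-coding genes tested the median was -0.08, with 54.1% below 0. Protein-coding genes of the same exonic length as the gamma genes (4664 to 7627 bases, 3818 genes) had a median of -0.27, with 64.7% below 0 and the 5th percentile at -1.37. The gamma genes with the largest differences were *Pcdhgc5* (-3.61) and *Pcdhgb1*, with 29, 40 and 4 counts (-2.96). Without replicate 3, 6 of 30 clustered protocadherins tested differed between the other 2 libraries, against 48.8% of all genes tested. None of these background sets was matched to the members by count.

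The spread between these replicates was wide. The biological coefficient of variation (BCV, edgeR, intercept-only) had a median of 0.520 over the 29 members tested, against 0.339 over all genes tested. Without replicate 3 both were lower, at 0.336 over the members and 0.209 over all genes tested. Among the 3 members averaging 100 counts or more, it was 0.519 for *Pcdhgb6*, 0.413 for *Pcdhgc3* and 0.405 for *Pcdhgb7*. The members and all genes tested were not matched by count.

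**Figure D4:**
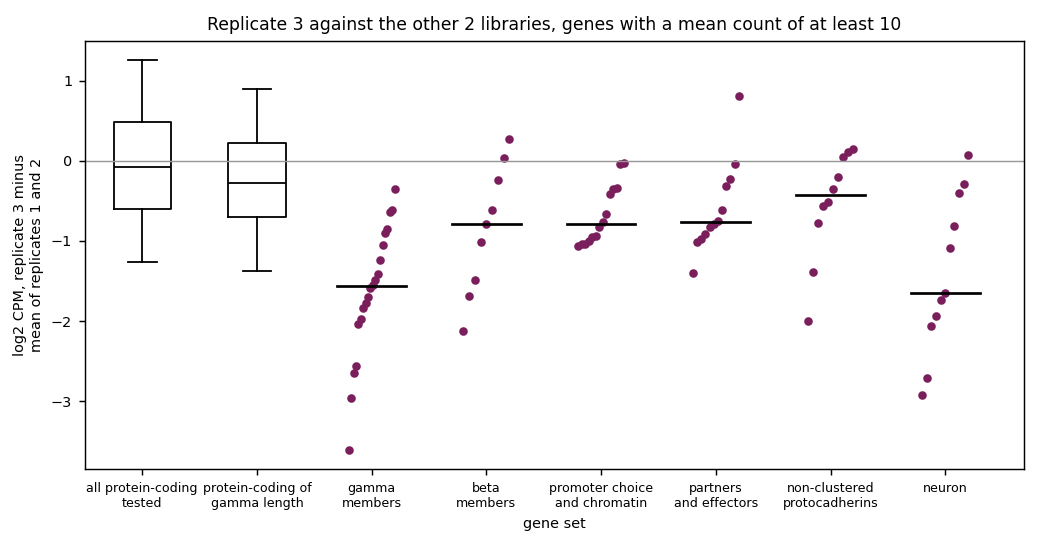
Difference in log2 CPM between replicate 3 and the mean of replicates 1 and 2 for genes averaging 10 counts or more. Boxes show all protein-coding genes tested and those of gamma exonic length (quartiles, with whiskers reaching all but the outer 5% at each end), points are genes of a set and the lines their medians. All 20 gamma genes tested lie below 0, with a median of -1.56 against -0.08 for all protein-coding genes.

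Genes that act on promoter choice in the clusters were all well detected, and most were lowest in the same library as the gamma genes. The 14 genes listed, for CTCF, cohesin and its loaders, DNA methyltransferases and the repressors SMCHD1 and SETDB1, all had 10 counts or more in each library. They ran from *Dnmt3b*, a de novo DNA methyltransferase, at 58.6 ± 21.4 CPM, to *Dnmt1*, the maintenance methyltransferase, at 435 ± 59.4 CPM (SD, n = 3). Of the 14, 12 differed beyond sampling noise and all 12 were lowest in replicate 3, beside 81.5% of all genes tested that differed and 39.1% that differed and were lowest there. The median of replicate 3 minus the others was -0.79 on the log2 scale.

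The 12 partners and effectors of clustered protocadherins listed, which include kinases bound by the common intracellular end, the WAVE complex and the sheddase ADAM10, were also all detected. They ran from *Ptk2b*, a focal adhesion kinase family member, at 1.03 ± 0.341 CPM to *Nckap1*, a WAVE complex subunit, at 159 ± 47.7 CPM. Of these, 11 differed and 10 were lowest in replicate 3, beside the same 81.5% and 39.1% over all genes tested. The exception was *Brk1*, the small subunit of the WAVE complex, with 3353, 3671 and 6244 counts.

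Of the 12 non-clustered protocadherins listed, 10 reached 10 counts in each library. The highest was *Pcdh18*, with 3382, 3243 and 2284 counts and 79.8 ± 16.7 CPM, above the sum of the gamma cluster in each library. On the per-kilobase scale its level was 14.9, against 10.6 for *Pcdhgc3*. The lowest was *Pcdh15*, a hair cell protein, with 7, 0 and 0 counts. Of the 10 tested, 8 differed and 6 were lowest in replicate 3, again beside 81.5% and 39.1% over all genes tested, without matching by count.

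Markers of other cell types also differed between the libraries. The 9 maxillary mesenchyme markers all reached 10 counts in each library, as did 61.3% of all protein-coding genes. They summed to 1900, 1943 and 2494 CPM in replicates 1, 2 and 3. Whether these genes set the maxillary process apart from other facial tissue was not tested. The higher sum in replicate 3 came from *Barx1*, with 332, 409 and 928 CPM. Without it the sum was 1568, 1534 and 1566 CPM, and 4 of the 8 remaining markers were lower in replicate 3 than the mean of the others. The 11 neuronal markers summed to 398, 28.6 and 39.3 CPM, and all 11 were highest in replicate 1. The 6 glial markers summed to 98.2, 25.2 and 26.4 CPM and the 6 epithelial markers to 340, 223 and 224 CPM. The epithelial markers did not move together: *Epcam* (66.6, 45.8 and 30.3 CPM), *Cdh1* (48.1, 32.5 and 13.4) and *Trp63* (55.4, 29.6 and 11.4) were lowest in replicate 3, like the gamma genes, while *Krt18* (86.7, 65.5 and 108) and *Krt5* (0.440, 0.478 and 1.25) were highest there and *Krt8* (83.2, 49.3 and 59.2) was lowest in replicate 2. Gamma counts were alike in replicates 1 and 2 (65.2 and 57.1 CPM) and lower in replicate 3 (22 CPM). The neuronal markers did not move together between replicates 2 and 3. Of the 11, 3 were lowest in replicate 3, such as *Isl1* (37.0, 11.2 and 5.31 CPM). Others, such as *Tubb3* (115, 7.64 and 16.9 CPM), were lowest in replicate 2. The 5 eye and forebrain markers summed to 21, 140 and 131 CPM, the 5 pigment markers to 0.648, 8.09 and 90.7 CPM, the 3 endothelial markers to 197, 217 and 128 CPM and the 3 blood markers to 1541, 2923 and 3614 CPM. The blood sum came from the globin genes *Hbb-y* and *Hba-x*, while *Gata1* (3.47, 5.70 and 2.65 CPM) was lowest in replicate 3. Of the endothelial markers, *Cdh5* (77.7, 87.9 and 49.1 CPM) and *Kdr* (77.6, 84.1 and 37.3) were lowest in replicate 3, while *Pecam1* had 41.7, 45.1 and 41.7. Most of the pigment sum in replicate 3 was *Pmel* (71.8 CPM), while *Mlana* had 3, 3 and 2 counts. The share of counted reads set aside because they overlapped more than 1 gene was 6.11%, 6.10% and 6.96%, so it was highest in the library with the fewest gamma counts. The part of cell composition, gene length and ambiguous reads in the lower gamma counts of replicate 3 was not tested.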

How the data were processed

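Total RNA of 3 OE samples was sequenced as poly-A libraries with paired 150-base reads. The authors mapped reads to mm10 with STAR, and the deposited values are raw, unnormalized counts of reads for each gene. STAR 2.7.3a, HTSeq 0.12.4 and FastQC are named in the submitters' processing notes, while the counting mode, strand setting and annotation release are not given in the sources used here. Rows naming no gene (14.2%, 15.7% and 16.4% of counted reads) were left out, which left 36544554, 35351031 and 40057435 counts on genes. For a gene without counts, the limit that 3 counts set was 0.0777, 0.0843 and 0.0796 CPM.

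Of 55401 identifiers, 55141 matched GENCODE M21 (GRCm38) and 260 did not. Exonic bases were merged per gene and compared with all other genes of that annotation. TMM factors (1.06, 1.01 and 0.940) and dispersions came from edgeR 4.0.16, with DESeq2 1.42.0 as an alternative, in R 4.3.3. Other steps used Python 3.11.15, numpy 2.4.6, pandas 2.3.3 and scipy 1.17.1. Adjusted p-values under 0.05 were called. The noise test and dispersion steps were tested on simulated data.

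With 1 group, edgeR's quasi-likelihood test has no contrast. Levels were described, and cluster differences were tested by exact sign flips over libraries. No pair of libraries agreed within sampling noise. The sign-flip p-value is 0.25 whenever all 3 libraries agree in direction, whatever their spread. The chi-square p-value sets counts against sampling noise alone. Whether the RNA samples came from separate litters was not stated, so neither p-value extends beyond these samples. Genes were named by rule: C-type genes, per cluster the 3 highest and 2 lowest levels, the extremes of BCV among genes averaging 100 counts or more, members at 0 in a library, and the highest and lowest gene of each pathway list. *Brk1*, *Barx1*, *Pcdhga3*, *Pcdhga4*, *Pcdhgb1*, *Pcdhgb2* and *Pcdhga11* were named after their values were seen. So were the neuronal, epithelial, pigment, endothelial and blood markers, the antisense and readthrough genes and the other genes of the locus. The members and lists were chosen with earlier results of these data known.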

Additional observations from a re-analysis of the deposited data

How the results depend on the processing

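Over 14 results, 76 alternative values were computed, of which 55 stayed within 1 SD between replicates (within 1.5 times for counts and BCV, within 1 percentage point for the unshared share), 21 moved and 0 changed direction. Of those 21, 7 are the median alpha level, whose SD between replicates was 0 because the alpha median was 0 in each library, so any change counted as a move. Scaling factors cancel in differences and ratios taken within a library. DESeq2 size factors and total counts could therefore only return the same value for those results. Levels, counts, BCV and shares cannot be negative, so no change of direction was possible for them. The median alpha level (0.00395) became 0.00161 over all exonic bases, 0.00347 over same-strand bases, 0.00395 with DESeq2 size factors and 0.00417 with total counts, and ran from 0 to 0.00517 when each replicate was left out in turn, as it rests on single counts. The pooled ratio over all exonic bases was 14.2 for beta to alpha and 6.79 for gamma to beta. The unshared share counted over coding bases was 82.9% for alpha and 86.5% for gamma. Members with at least 10 counts in every library numbered 22, and 7 reached 30. Leaving out each replicate in turn, the members beyond sampling noise numbered 6 to 22 against 23, lowest without replicate 3, and the median BCV ran from 0.336 to 0.615. On the log2 scale beta minus alpha (2.43) was 1.04 with 2 counts added in place of 0.5, 2.74 over same-strand bases and 4.15 over all exonic bases. Beta minus gamma (-2.96) was -2.17 over all exonic bases and -1.93 over members averaging 10 counts or more. The log2 gap of *Pcdhgc3* to *Pcdhgb6* was 1.61 over same-strand bases and 1.77 over all exonic bases. Where a length or a left-out library defines the alternative, its construction is what moved the value. For beta minus alpha, restriction to members with a mean count of at least 10 left no alpha gene, so it gave no value. The pooled ratios, the same-strand levels of single genes, the *Pcdhgc3* gap, the mesenchyme sum without *Barx1* and the raising of counts under 3 were chosen after seeing the data. No paired analysis was possible because the libraries form 1 group. Alpha values are the least precise, since 12 of the 14 genes had at most 3 counts in every library, and the cause of these low counts was not tested.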

Other observations

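Of 28 other genes annotated within the locus, 17 were at 0 counts in all 3 libraries. *Taf7*, a subunit of the general transcription factor TFIID that lies between the beta and gamma clusters, was the most abundant, with 1359, 1338 and 1039 counts or 33.5 ± 5.23 CPM (SD, n = 3). It was lowest in replicate 3, as were the gamma genes, though by a smaller margin. *Slc25a2*, a mitochondrial ornithine carrier next to it, had 13, 12 and 15 counts, and the noncoding gene *3222401L13Rik*, just before the gamma cluster, had 88, 64 and 47. The pseudogene *Pcdhgb8* had 33, 29 and 17 counts and a level of 0.283 ± 0.0890, within the range of the gamma genes.

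The readthrough genes *Gm42416*, *Gm37013* and *Gm37388* join alpha and gamma exons, share all their bases with other genes and were at 0 in all 3 libraries.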
